A study of Mus musculus with 16 samples.

Results

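Cytochrome c oxidase (complex IV) is the last enzyme of the respiratory chain, and the genes described here encode its nuclear subunits and the proteins that assemble it. They were taken by symbol from a table of 54132 rows: every gene named Cox followed by a digit or Coa followed by digits, together with Sco1, Sco2 and Surf1, leaving out pseudogenes and genes encoded by mitochondrial DNA. This gave 35 genes, 17 for subunits and 18 for assembly proteins, and 31 of them had enough counts to be tested. The samples were heart ventricles of mice at 8 weeks of age. Control mice carried floxed Rbpms alleles (Rbpms fl/fl) and no Cre, and knockout mice (cKO) carried the same alleles with Myh6-Cre, a recombinase driven by a promoter that is active in heart muscle cells. Each genotype had 4 libraries, of which replicate 3 came from a female and the other 3 from males. Mice with Myh6-Cre and unfloxed Rbpms were not analysed here, so an effect of Cre itself and an effect of Rbpms loss cannot be told apart. The labels do not say that each library was a separate heart, so the p-values cover the spread among libraries, which may be technical.

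Complex IV passes electrons from cytochrome c to oxygen and pumps protons across the inner mitochondrial membrane. Its catalytic core is made of subunits encoded by mitochondrial DNA, which carry the heme and copper centres, and nuclear genes supply the smaller subunits around that core. Several nuclear subunits exist as a form found in most tissues and a form of heart and skeletal muscle, so that a heart holds both. Assembly needs proteins that make heme A, proteins that hand over copper, and proteins that hold the newly made core subunits.

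Totals ran from 20165700 to 24508100 counts per library. Rbpms, an RNA-binding protein and the deleted gene, had 1944 to 4590 counts in control libraries and 625 to 936 in cKO libraries, so no library went against its label. All 10 cardiomyocyte markers were detected in each genotype. Control replicate 4 stood apart in several ways. Mitochondrially encoded genes gave 11.8% of its counts, against 8.04% to 10.1% in the other 7 libraries. It held RNA of skeletal muscle myosin (Myh4, 58.2 CPM against 0 to 0.31 elsewhere). Its Rbpms count, 1944, was the lowest of the controls (3134 to 4590 in the others). Nppa (104 CPM, other controls 42.1 to 55.3) and Acta1 (705 CPM, other controls 75.6 to 215) were its highest control values. In cKO libraries Nppa held 393 to 540 CPM and Acta1 1937 to 2523 CPM. Levels are CPM, counts scaled to a common effective library size.

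Sequence immediately before the RefSeq start is shown for 4 members that the results below turn on: Cox19, which rose, Cox10 and Cox7a1, which fell, and Cox6a1, the general form of a subunit whose muscle form, Cox6a2, had the highest mean control level per kilobase of exon. Each run is the 250 bases before the RefSeq start (GRCm38.p6), printed 5′ to 3′ on the gene's strand. Capitals mark matches on either strand to 4 motifs: the ETS core bound by GABP (CCGGAAG), the GC box (GGGCGG), the CCAAT box (CCAAT) and the palindrome of NRF1, which occurs in the Cox6a1 run. For Cox19, Cox7a1 and Cox6a1 the RefSeq start lies inside the GENCODE span of the gene, so the last bases of the Cox7a1 and Cox6a1 runs, with the ETS match of Cox6a1, and the whole Cox19 run fall within the gene as GENCODE draws it. The windows are chr5:139345167-139345416 (Cox19, minus strand), chr11:64079473-64079722 (Cox10, minus strand), chr7:30183921-30184170 (Cox7a1, plus strand) and chr5:115348959-115349208 (Cox6a1, minus strand).
Cox19: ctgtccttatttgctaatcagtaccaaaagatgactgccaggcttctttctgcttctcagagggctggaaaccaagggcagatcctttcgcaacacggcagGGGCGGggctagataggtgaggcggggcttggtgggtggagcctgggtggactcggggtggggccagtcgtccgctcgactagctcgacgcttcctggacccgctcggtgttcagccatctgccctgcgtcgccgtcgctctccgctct
Cox10: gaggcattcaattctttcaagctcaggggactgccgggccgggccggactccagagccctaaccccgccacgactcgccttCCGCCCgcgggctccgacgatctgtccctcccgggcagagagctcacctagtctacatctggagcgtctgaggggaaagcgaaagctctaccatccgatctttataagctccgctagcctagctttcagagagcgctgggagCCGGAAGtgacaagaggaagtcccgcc
Cox7a1: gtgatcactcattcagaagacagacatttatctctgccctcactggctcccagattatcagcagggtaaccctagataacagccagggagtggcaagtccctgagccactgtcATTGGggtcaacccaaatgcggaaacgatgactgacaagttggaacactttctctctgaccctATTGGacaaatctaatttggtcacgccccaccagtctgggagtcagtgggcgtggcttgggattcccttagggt
Cox6a1: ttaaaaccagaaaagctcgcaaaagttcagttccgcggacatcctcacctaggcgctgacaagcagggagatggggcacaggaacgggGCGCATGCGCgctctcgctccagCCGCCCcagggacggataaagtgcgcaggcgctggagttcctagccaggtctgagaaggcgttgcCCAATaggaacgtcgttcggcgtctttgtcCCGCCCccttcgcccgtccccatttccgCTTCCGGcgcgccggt

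Promoter windows were found for 27 of the 35 members, 28 windows in all. The ETS core stood in 8 of the 28 windows (28.6%), against 6.91% of all 32851 windows of the same length. Those windows belonged to Coa4, Cox10, Cox16, Cox20, Cox6a1, Cox6b1 and Sco1, of which only Cox10 passed the test described below. The GC box stood in 17 member windows (60.7%, against 32.7% of all) and the CCAAT box in 12 (42.9%, against 33.8%). The NRF1 letters were found in 1 member window, that of Cox6a1 (3.57%, against 0.782% of all). These are matches of letters, and binding was not measured.

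Of the 31 tested members 11 fell and 1 rose, by the quasi-likelihood test of edgeR with Benjamini-Hochberg adjustment over 16051 genes and a threshold of 0.05. Among all tested genes 9.64% fell, 9.64% rose and 19.3% changed in either direction. The median log2 fold change (cKO over control) of the tested members was -0.27, and that of all tested genes was 0.01. Negative values were found for 27 of the 31, and for 25 with total counts as the only scaling. The falls were modest: apart from Cox6b2, a gene of few counts, the mean changes of the members that fell ran from -33.2% to -18.5%. Summed over the 35 members, control libraries held 4183, 4241, 4558 and 4810 CPM and cKO libraries 3513, 3737, 3418 and 3790 CPM, so the genotypes did not overlap in this sum. Most of the sum came from subunits. With total counts as the only scaling 9 members fell and 1 rose, and 66.1% of all called genes were higher, against 50.0% with TMM.

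**Figure D1:**
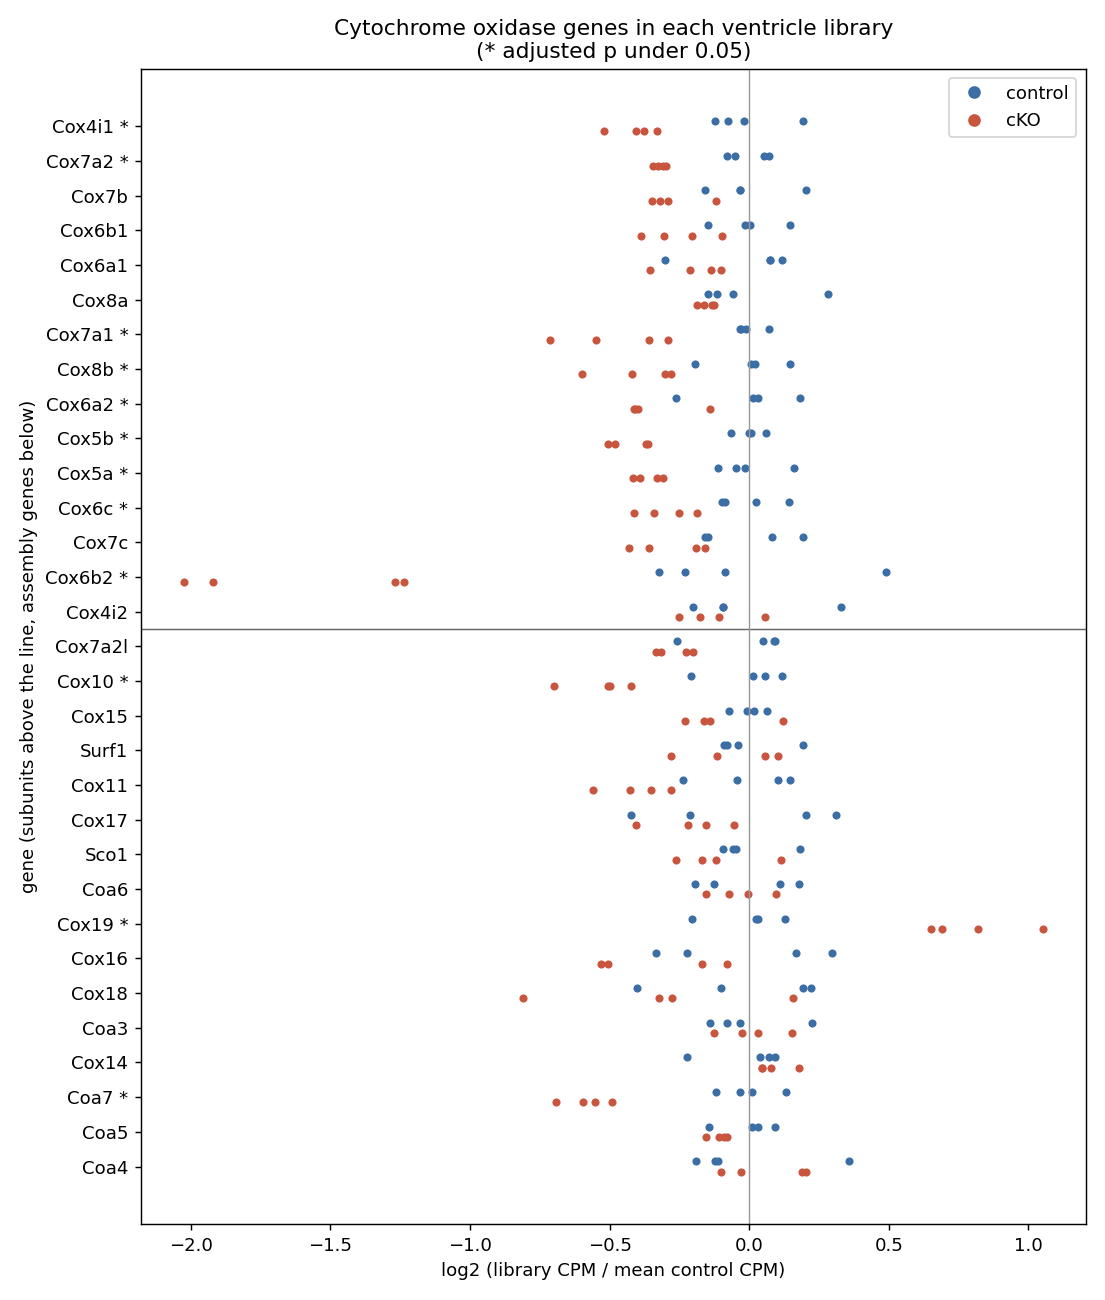
Level of each tested oxidase gene in each of the 8 libraries, as log2 of the library's CPM over the mean control CPM (x axis), with genes on the y axis and an asterisk for an adjusted p under 0.05. Points of the cKO libraries lie left of the controls for most subunits (above the line). Cox19 is the assembly gene whose cKO points all lie to the right of all its control points.

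Of 17 subunit genes 15 were tested, 9 fell, 0 rose and 6 did not pass, and all 15 log2 fold changes were below 0. The 2 untested ones were Cox7b2, with 0 to 6 counts per library, and Cox8c, with 0 counts in all 8. Of 16 assembly genes tested, 2 fell, 1 rose and 12 had values below 0. Among all 16051 tested genes 9.64% fell, 9.64% rose and 7928 had values below 0, so the assembly calls were near the general share. The medians were -0.32 for subunits and -0.10 for assembly genes, and the difference between these groups of genes was not tested.

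Members with high counts made up most of the calls. Of 13 members with a mean of at least 100 CPM, a level chosen after the values were seen, 8 fell (61.5%). Among all 1910 genes at that level 22.4% fell and 9.84% rose.

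Cox4i1 encodes the general form of subunit 4, a structural subunit with regulatory nucleotide sites (chromosome 8, 120668222 to 120674207, plus strand, GRCm38). Control libraries held 802, 776, 835 and 965 CPM and cKO libraries 637, 671, 589 and 650 CPM. Every cKO library was below every control library, and the log2 fold change was -0.41 ± 0.09 (SE, adjusted p = 0.00728). Emc8, on the other strand, overlaps 154 bases of its exons, 9.94% of their merged length, and the sources used here do not give the strand setting of the counting.

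Cox5a and Cox5b encode subunits 5a and 5b, which have no muscle form in mouse. Cox5b (chromosome 1, 36691449 to 36693681, plus strand) measured 261, 248, 260.3 and 271 CPM in controls and 187, 201, 183 and 202 CPM in cKO, with a log2 fold change of -0.43 ± 0.07 (adjusted p = 0.00145). Cox5a (chromosome 9, 57521274 to 57532426, plus strand) measured 205, 214, 219 and 247 CPM in controls and 169, 176, 166 and 179 CPM in cKO, with -0.36 ± 0.08 (adjusted p = 0.00675). Neither gene had overlapping groups, and their cKO libraries lay close together. Cox6c, a small membrane subunit (chromosome 15, 35925886 to 35938246, minus strand), measured 309, 311, 364 and 336 CPM in controls and 260.3, 277, 248 and 290.1 CPM in cKO. Its groups also did not overlap (log2 fold change -0.29 ± 0.08, adjusted p = 0.0276). The Cox6c call was lost without control replicate 3 (adjusted p = 0.0668) or cKO replicate 1, 2 or 3 (0.0935, 0.0514 and 0.0769), in males alone (0.160) and with total counts only (0.0954).

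The muscle forms Cox6a2, Cox7a1 and Cox8b all fell. Cox7a1 (chromosome 7, 30184144 to 30186078, plus strand) measured 191, 193, 191 and 204 CPM in controls and 133, 152, 119 and 159 CPM in cKO. The controls were tight and the cKO libraries spread out below them, with a log2 fold change of -0.47 ± 0.09 (adjusted p = 0.0047). Cox8b (chromosome 7, 140898945 to 140900446, minus strand) measured 107, 123, 124 and 135 CPM in controls and 91.2, 98.9, 80.6 and 100.4 CPM in cKO, again without overlap (-0.40 ± 0.10, adjusted p = 0.0127). In males alone the adjusted p of Cox8b was 0.0506. Cox6a2 (chromosome 7, 128205435 to 128206387, minus strand) measured 437, 357, 432 and 485 CPM in controls and 322, 388, 321 and 324 CPM in cKO. Here the groups overlapped, since cKO replicate 2 was above control replicate 2 (-0.34 ± 0.10, adjusted p = 0.0407).

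The call of Cox6a2 rested on nearly every library. It was lost without control replicate 1, 3 or 4 (adjusted p = 0.0884, 0.0728 and 0.0992), without cKO replicate 1, 3 or 4 (0.125, 0.0985 and 0.104), in males alone (0.142) and with total counts only (0.066). Control replicate 4, the library with skeletal muscle myosin RNA, was the highest control for all 3 muscle forms. Counting these, it was the highest control for 10 of the 15 tested subunit genes. The general forms Cox4i1, Cox6a1, Cox6b1 and Cox8a were among the 10, and Cox7a2 and Cox7b were not. Without control replicate 4 the log2 fold changes were -0.27 for Cox6a2, -0.45 for Cox7a1 (adjusted p = 0.0129) and -0.35 for Cox8b (adjusted p = 0.0317). Ucp1, a brown fat gene, was at 0 in all controls and at 5.05 CPM in cKO replicate 1, against 0 to 0.18 CPM in the other cKO libraries. Summed over 4 brown fat markers the libraries held 16.5 to 26.1 CPM in controls and 34.1 to 45.7 CPM in cKO, and both tested ones, Cidea and Dio2, rose. Most of that sum was Cidea (means 18.9 CPM in controls and 28.7 in cKO). The fourth marker, Elovl3, was near 0 in every library (0 to 0.25 CPM), and whether each cKO library held brown fat RNA was not tested. Brown fat also expresses Cox7a1 and Cox8b, and the part of these markers in their levels was not tested.

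Of the general forms of the same subunits, Cox7a2 passed and the other 2 did not. Cox7a2 (chromosome 9, 79755361 to 79759878, minus strand) measured 188, 185, 205 and 203 CPM in controls and 156, 159, 154 and 157 CPM in cKO. These groups were clearly apart, with a log2 fold change of -0.32 ± 0.07 (adjusted p = 0.00668). Cox6a1 measured 42.3, 42.3, 32.6 and 43.6 CPM in controls and 36.6, 31.4, 37.4 and 34.7 CPM in cKO. Its lowest control was the female library, and the log2 fold change of -0.20 ± 0.10 did not pass (adjusted p = 0.218), though it did without control replicate 3 (-0.29, adjusted p = 0.0387). Cox8a measured 54.5, 58.0, 55.8 and 73.5 CPM in controls and 55.1, 54.0, 55.4 and 53.1 CPM in cKO. Its groups overlapped and control replicate 4 was high (log2 fold change -0.15 ± 0.10, adjusted p = 0.312).

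Whether muscle and general forms shifted against each other was tested within libraries, as the log2 ratio of their counts. The Cox8b to Cox8a ratio was 1.02 ± 0.12 (SD, n = 4) in controls and 0.76 ± 0.17 in cKO, a difference of -0.25 (exact two-sided permutation p = 0.0571, adjusted over 5 pairs 0.143). For Cox7a1 to Cox7a2 the difference was -0.16 (exact permutation p = 0.171, adjusted 0.214). For Cox6a2 to Cox6a1 it was -0.14 (exact permutation p = 0.486) and 0.02 in males alone. This value moved to -0.25 and -0.03 without control replicate 2 and 3 and to -0.26 and -0.08 without cKO replicate 2 and 3, and that of Cox7a1 to Cox7a2 moved to -0.09 without cKO replicate 3. With 4 against 4 libraries the exact p cannot go below 0.0286, and a single pair at that limit stays at 0.143 after adjustment over 5 pairs, so the adjusted values cannot show whether 1 pair alone shifted. Scaled by exon length, the muscle form made up 89.7% to 93.2% of the Cox6a pair, 57.7% to 64.9% of the Cox7a pair and 71.4% to 79.2% of the Cox8 pair across the 8 libraries.

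**Figure D2:**
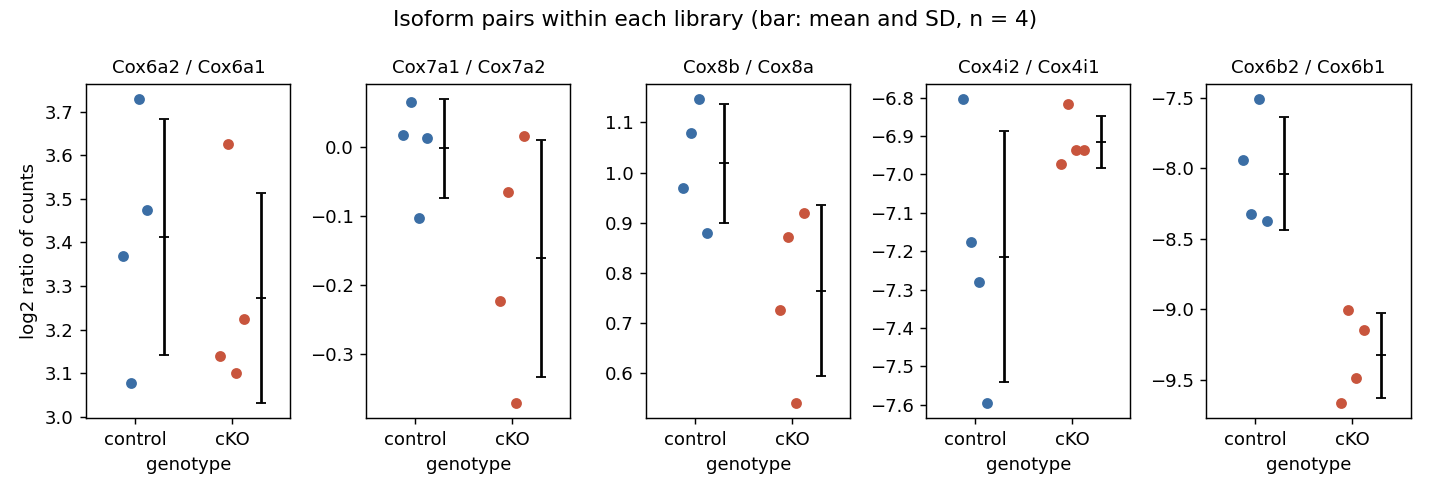
Log2 ratio of counts of a tissue-restricted form to the general form of the same subunit (y axis, 1 panel per pair, scales differ) in each control and cKO library, with the mean and SD of 4 libraries. In the Cox6b2 to Cox6b1 pair the genotypes do not overlap, and in the other 4 pairs they do.

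Tissue-restricted forms known mainly from tissues other than muscle were scarce. Cox6b2, best known from testis (chromosome 7, 4751792 to 4753094, minus strand), had 28, 22, 45 and 22 counts in controls and 8, 13, 9 and 13 in cKO. No cKO library reached a control library, and the log2 fold change was -1.57 ± 0.33 (adjusted p = 0.00583), 2.97-fold lower from 1.35 ± 0.37 CPM (SD, n = 4). Its partner Cox6b1, which faces the cytochrome c side of the complex, measured 318, 352, 348 and 390 CPM in controls and 285, 305, 269 and 329 CPM in cKO (-0.24 ± 0.09, adjusted p = 0.078). Within libraries the Cox6b2 to Cox6b1 ratio differed by -1.29 on the log2 scale (exact permutation p = 0.0286, adjusted 0.143). Cox4i2, a form described mainly in lung, measured 7.16, 5.34, 5.35 and 4.96 CPM in controls and 5.05, 5.93, 4.79 and 5.29 CPM in cKO. Its groups overlapped (-0.12 ± 0.16, adjusted p = 0.672), and its ratio to Cox4i1 differed by 0.30 (exact permutation p = 0.143, adjusted 0.214), or by 0.17 without control replicate 4.

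Cox7b and Cox7c, 2 small membrane subunits, did not pass. Cox7b, the X-linked one, fitted at -0.27 ± 0.09 (adjusted p = 0.0627) and passed without control replicate 1 (0.0423) or cKO replicate 4 (0.0468). Cox7c fitted at -0.28 ± 0.10 (adjusted p = 0.0741). With DESeq2, Cox6b1, Cox7b, Cox7c and Cox7a2l passed too (adjusted p = 0.0403, 0.0261, 0.0434 and 0.026). By that method 15 members fell, against 11 in the main fit. Over all 16051 tested genes it called 1819 lower, against 1547 in the main fit.

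**Figure D3:**
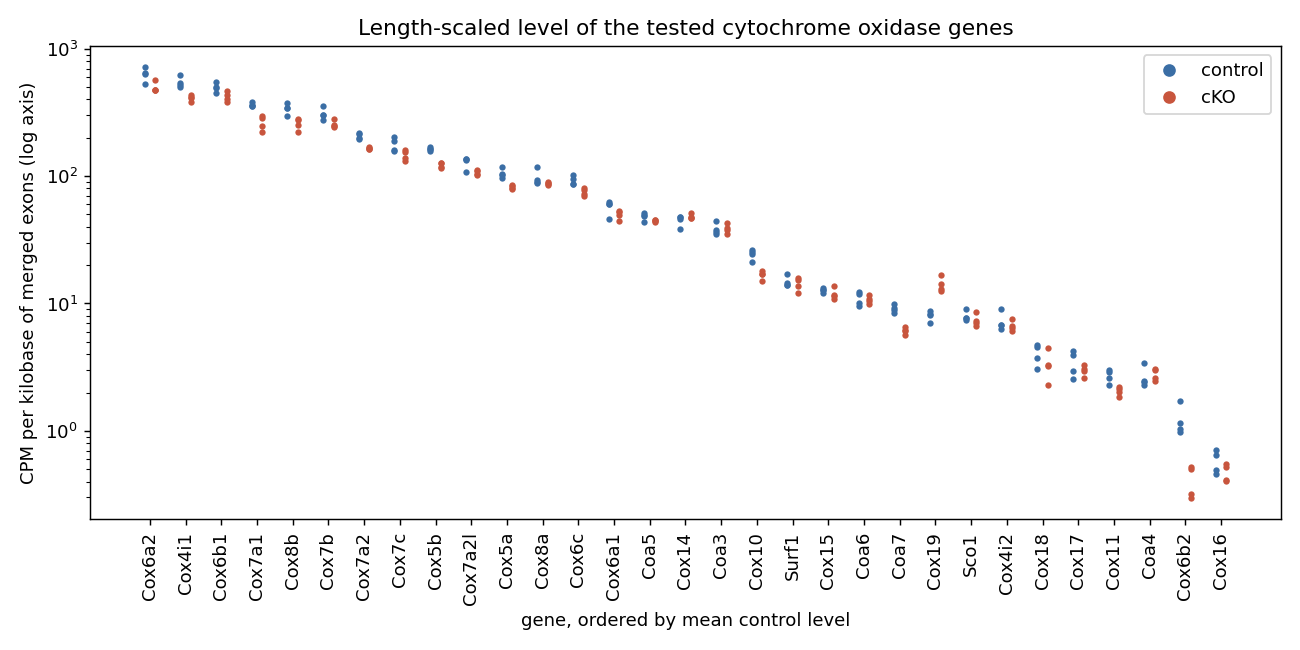
CPM per kilobase of merged exons (log axis) of the 31 tested oxidase genes in control and cKO libraries, ordered by mean control level (x axis). Most subunit genes fill the left of the plot. By mean control level the assembly genes other than Cox7a2l come after Cox6a1, though points of single libraries overlap.

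Per kilobase of merged exons, the most abundant members in controls were Cox6a2 (mean 629 CPM per kilobase), Cox4i1 (545), Cox6b1 (497), Cox7a1 (364) and Cox8b (339). In cKO these 5 stood at 498, 411, 420, 263 and 258. In controls the libraries of Cox6a2 and Cox4i1 overlapped on this scale, as did those of Cox4i1 and Cox6b1 and those of Cox7a1 and Cox8b, whereas Cox6b1 and Cox7a1 were apart. Among assembly genes Cox7a2l was highest (128), then Coa5 (48.2), Cox14 (45.1) and Coa3 (38.4). Merged exons include every annotated transcript, so genes with rare long transcripts, such as Cox17 (5773 bases) and Cox6c (3567 bases), come out low on this scale.

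Heme A synthesis genes differed among themselves. Cox10 (chromosome 11, 63962627 to 64079468, minus strand) encodes the farnesyl transferase that starts heme A synthesis from heme, and it measured 79.9, 63.8, 74.4 and 76.6 CPM in controls and 52.2, 54.9, 45.3 and 51.8 CPM in cKO. All cKO libraries were lower, with a log2 fold change of -0.53 ± 0.09 (adjusted p = 0.0018). Cox15, which completes heme A, measured 62.5 ± 2.43 CPM (SD, n = 4) in controls and 58.5 ± 6.46 in cKO (-0.10 ± 0.09, adjusted p = 0.484). Surf1, an early assembly factor linked to heme insertion, measured 26.0 ± 2.50 and 25.1 ± 2.99 CPM (-0.05 ± 0.11, adjusted p = 0.79). Neither passed in any of the 18 other fits.

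Copper delivery held the member that rose. Cox19 (chromosome 5, 139336189 to 139351418, minus strand) encodes a small cysteine-rich protein of the intermembrane space that works with Cox11 in copper delivery. It measured 26.1, 30.6, 30.8 and 32.9 CPM in controls and 48.6, 47.3, 62.4 and 53.1 CPM in cKO. Its groups were far apart, 1.76-fold higher in cKO (log2 fold change 0.81 ± 0.11, adjusted p = 0.000381), and the highest value was in the female cKO library. In males alone the log2 fold change was 0.73 (adjusted p = 0.000938). None of its exons overlaps another annotated gene, and none of its 75-base windows is shared with a transcript of another gene.

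The other copper genes did not pass. Cox17, the copper chaperone upstream of Sco1 and Cox11, measured 19.8 ± 4.63 CPM in controls and 17.2 ± 1.72 in cKO (SD, n = 4; -0.20 ± 0.15). Sco1, which metallates the second core subunit, measured 31.2 ± 2.81 and 29.1 ± 3.31 CPM (-0.10 ± 0.10), and Coa6, its partner, 8.19 ± 1.02 and 8.01 ± 0.59 CPM (-0.03 ± 0.13). Cox11 measured 3.26, 3.72, 4.25 and 4.13 CPM in controls and 2.61, 2.86, 3.17 and 3.01 CPM in cKO. Its groups did not overlap, but the log2 fold change of -0.40 ± 0.17 did not pass (adjusted p = 0.131). Groups did not overlap in the lower direction for 11 members, Cox11 among them, against 11.8% of all tested genes, and in the higher direction for 1.

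Among proteins that hold newly made core subunits, none of the 4 tested passed. Cox14 and Coa3, which attend the first core subunit, measured 32.6 ± 3.16 and 34.0 ± 3.93 CPM in controls and 34.7 ± 1.54 and 34.3 ± 2.80 CPM in cKO (log2 fold changes 0.09 ± 0.09 and 0.01 ± 0.10). Cox18, which inserts part of the second core subunit into the membrane, gave -0.27 ± 0.20, and Cox16 gave -0.30 ± 0.23. Cox16 had only 35 to 58 counts per library.

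Of the remaining assembly genes Coa7 fell. Coa7 (chromosome 4, 108328140 to 108341544, plus strand) encodes an intermembrane space protein needed for a normal level of the complex. It measured 34.3, 35.4, 38.5 and 32.4 CPM in controls and 21.7, 24.0, 23.3 and 24.97 CPM in cKO. These groups were well apart, and the log2 fold change of -0.58 ± 0.08 (adjusted p = 0.000686) was the lowest of the assembly genes tested. Coa5, with 252 ± 17.4 and 234 ± 5.39 CPM, and Coa4, with 6.94 ± 1.31 and 7.29 ± 0.78 CPM, did not pass (-0.11 ± 0.07 and 0.07 ± 0.16). Cox7a2l, which joins complex IV to complex III in supercomplexes, measured 190 ± 21.0 and 158 ± 7.19 CPM (-0.27 ± 0.09, adjusted p = 0.0561). It passed without control replicate 1, its lowest control (adjusted p = 0.01), and with robust dispersions or no filter on low counts (0.0498 and 0.0493).

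Some assembly genes could hardly be measured with these counts. Sco2 had 0 counts in all 8 libraries and Cox20 had 2 to 6. In the annotation 91.8% of Sco2 exon sequence overlaps Tymp or Ncaph2, and 91.0% of Cox20 exon sequence overlaps Hnrnpu on the other strand. Cox16 overlaps Gm20498 (56.8%) and Cox11 overlaps Tom1l1 on the other strand (48.3%). Counts of these 4 genes are therefore uncertain, and how overlapping reads were counted is not given in the sources used here.

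Other genes of oxidase biogenesis, from lists chosen with earlier results known, changed in 1 direction where they passed. Of 24 further factors and partners 21 were tested, 10 fell and 0 rose (median log2 fold change -0.32). Among all tested genes 9.64% fell and 9.64% rose, and of those with a mean of at least 100 CPM 22.4% fell. Lrpprc, which stabilises mitochondrial messenger RNA, measured 306, 331, 358 and 337 CPM in controls and 241, 242, 225 and 238 CPM in cKO (log2 fold change -0.49, adjusted p = 0.000798). Oxa1l, the insertase of the inner membrane, measured 105, 87.8, 84.8 and 103 CPM in controls and 61.7, 66.5, 58.8 and 66.8 CPM in cKO (-0.58, adjusted p = 0.00097). Both genes had separate groups. Smim20 and Tmem177, which act on the first and second core subunits, fell with -0.49 and -0.56, Chchd10 with -0.51, and Slc25a3, the carrier that brings phosphate and copper into the matrix, with -0.42. Ndufa4, now counted as a subunit of complex IV, and Cycs, cytochrome c itself, had log2 fold changes of -0.21 ± 0.09 (adjusted p = 0.135) and -0.29 ± 0.11 (adjusted p = 0.101). Cycs passed without control replicate 1 (0.0231) or cKO replicate 4 (0.0498).

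The mitochondrially encoded core subunits did not pass. Mt-Co1 measured 18217, 15570, 16559 and 22927 CPM in controls and 15394, 16682, 13984 and 15732 CPM in cKO. The genotypes overlapped, with cKO replicates 1 and 3 below every control, and the log2 fold change was -0.25 ± 0.13 (adjusted p = 0.227). Mt-Co2 measured 143, 54.6, 122 and 196 CPM in controls and 110, 123, 88.8 and 109 CPM in cKO. Mt-Co3 measured 382, 252, 333 and 503 CPM in controls and 304, 347, 241 and 291 CPM in cKO. Both stood far below mt-Co1, and the cause was not tested. For mt-Co2 and mt-Co3 the log2 fold changes were -0.26 ± 0.28 and -0.31 ± 0.18 (adjusted p = 0.577 and 0.262). Control replicate 2 was the lowest control for all 3 genes and replicate 4 the highest, and mt-Co2 passed without control replicate 2 (-0.52, adjusted p = 0.0492). Without control replicate 4 the log2 fold changes of mt-Co1, mt-Co2 and mt-Co3 were -0.12, 0.0075 and -0.13. With each library left out in turn, mt-Co1 ran from -0.32 to -0.12 and mt-Co3 from -0.46 to -0.13.

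Of 9 transcriptional regulators known to act on nuclear oxidase genes, 2 fell and 0 rose, with a median log2 fold change of -0.16. The share among all tested genes was 9.64% in each direction, and the difference of these few regulators from it was not tested. The coactivator genes Ppargc1a (206 ± 25.7 to 160 ± 18.1 CPM, SD, n = 4; log2 fold change -0.37, adjusted p = 0.0325) and Ppargc1b (36.1 ± 1.78 to 28.9 ± 3.12 CPM; -0.32, adjusted p = 0.0303) were those called. Ppargc1a was lost without control replicate 2 or 3 (adjusted p = 0.0584 and 0.0695) or cKO replicate 2, 3 or 4 (0.0547, 0.0695 and 0.0859), in males alone (0.127) and with total counts only (0.103). Ppargc1b was lost without control replicate 1, 2 or 3 (adjusted p = 0.0656, 0.0656 and 0.0504) or cKO replicate 3 or 4 (0.0773 and 0.0605), in males alone (0.109) and with total counts only (0.136). Nrf1 (-0.20), Gabpa (-0.04) and Gabpb1 (-0.08) were among the 7 that missed the threshold.

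Libraries differed in the subunits as a block. The 15 tested subunit genes were summarised in each library by their median log2 level against the control mean. This median was -0.09, -0.07, 0.00027 and 0.12 in control replicates 1 to 4 and -0.36, -0.30, -0.41 and -0.28 in cKO replicates 1 to 4. Control replicate 4 had the highest control value for 10 of the 15 subunits, and control replicate 1 the lowest for 8. In cKO, replicate 3, the female library, had the lowest value for 11, and replicate 4 the highest for 8. Control replicate 1 also had the highest control level of the atrial marker Myl7 (92.6 CPM, other controls 17.1 to 32.5), which ran from 20.8 to 63.6 CPM in cKO. It was the highest control for the atrial markers Myl4 (96.0 CPM) and Sln (12.3 CPM) too. Among cKO libraries, replicate 4 was the highest for Myl7 (63.6 CPM), Myl4 (168 CPM) and Sln (15.1 CPM). Nppa, also on the atrial list, was highest in control replicate 4 and in cKO replicate 3. The part of atrial RNA in the subunit levels was not tested. Without control replicate 4 the counts were 10 members lower and 1 higher, and in males alone 9 lower and 1 higher. For the 13 subunits with a mean of at least 10 CPM, the coefficient of variation was 3.35% to 14.6% in controls and 1.45% to 13.0% in cKO.

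Cell type markers moved beside these genes. Summed over 10 cardiomyocyte markers, control libraries held 45890.5 to 59982 CPM and cKO libraries 38054.5 to 46590 CPM, and 3 of the markers fell (Tnni3, Ryr2 and Ckm) while 0 rose. The mean of this sum was 19.7% lower in cKO, and that of the 17 subunit genes was 21.0% lower. Set against the marker sum, subunit genes held 69.1 ± 5.70 CPM per 1000 CPM of cardiomyocyte markers (SD, n = 4) in controls and 67.8 ± 4.38 in cKO, with ranges of 62.7 to 74.3 and 63.9 to 72.8. That ratio therefore overlapped fully between genotypes; the marker sum is mostly Myh6 and Ttn, which did not pass by themselves (adjusted p = 0.0952 and 0.203). Fibroblast markers all rose, 8 of 8, with sums of 1412 to 2044 CPM in controls and 3422 to 4571 CPM in cKO. Of 6 macrophage markers 2 rose (sums 165 to 257 and 265 to 303 CPM), and of 6 endothelial markers 1 rose (sums 1019 to 1291 and 969 to 1172 CPM). None of 6 smooth muscle and pericyte, 5 red cell and 3 fat markers tested passed, and Nppa (atrial list, 4 tested) and Acta1 (skeletal muscle list, 5 tested) rose. The part of these markers in the lower oxidase counts was not tested. In whole ventricle, fewer cardiomyocytes and less RNA per cardiomyocyte cannot be told apart.

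**Figure D4:**
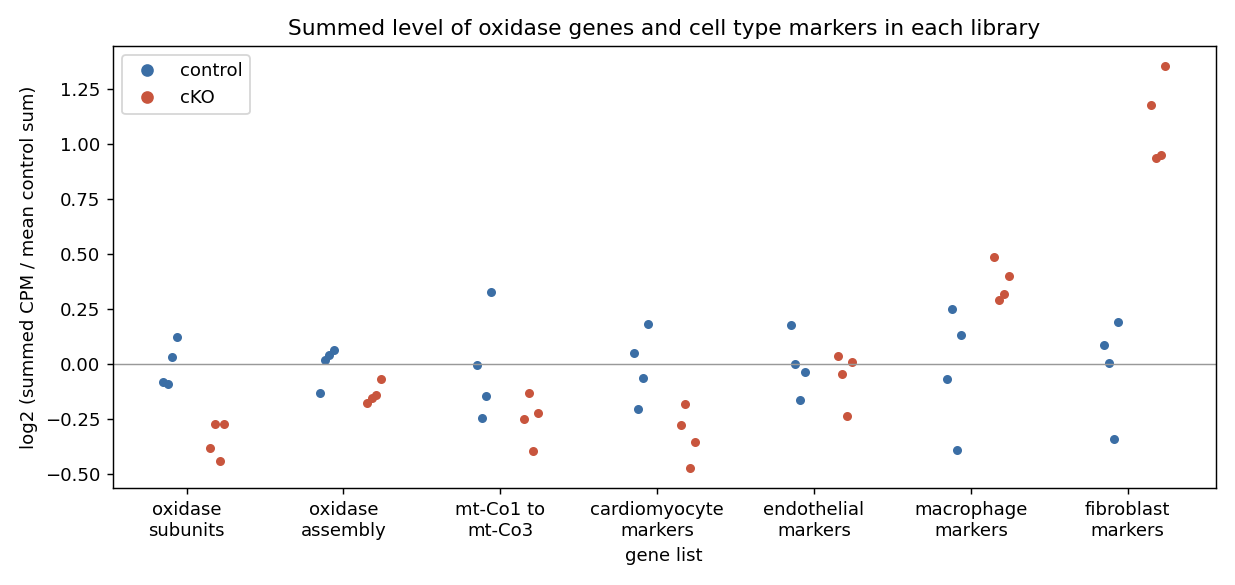
Summed CPM of oxidase gene lists and cell type marker lists in each library, as log2 of the sum over the mean control sum (y axis), for control and cKO libraries by list (x axis). The cKO points of the oxidase subunits and most of those of the cardiomyocyte markers lie below the controls, and those of the fibroblast markers lie above.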

How the data were processed

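Stranded libraries of messenger RNA in 8 ventricle libraries were sequenced, per the labels' protocols. The authors deposited whole-number read counts per gene symbol. The submitters' processing notes name edgeR 3.30.3, featureCounts 1.6.0, HISAT2 2.0.4 and FastQC 0.11.4, without roles, and give GRCm38 and mm10 as builds. The sources used here do not give the annotation release, the strand setting or the treatment of multiply aligned reads, so overlapping or duplicated genes are uncertain. From the deposited counts, 24 rows whose name is a number were removed (0.115% to 0.132% of counts). Newborn libraries were not analysed here.

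Genotype was fitted with edgeR 4.0.16 (R 4.3.3; quasi-likelihood, TMM, filterByExpr), with two-sided tests and Benjamini-Hochberg adjustment over 16051 genes. CPM use TMM effective library sizes, and 1 CPM is about 20.2 to 24.5 reads. SE is the log2 fold change over the square root of F. Isoform ratios use a prior count of 0.5 and exact permutation. Positions and exon lengths are from GENCODE M21 (GRCm38), in which 53067 of 54132 symbols matched, and promoters are from RefSeq. Replicate pairs differed far beyond sampling noise (chi-square per degree of freedom 7.79 to 34.8). The script was tested on simulated counts. Alternatives were DESeq2 1.42.0, limma-voom 3.58.1, other scalings and filters, robust dispersions, sex as a covariate, males alone, each library left out, no mitochondrial genes and a threshold of 0.01.

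Members and lists were chosen with earlier results of these data known. By rule, called members, isoform pairs and the 5 most abundant members are given in full, with up to 6 called genes of each further list, Ndufa4, Cycs and mt-Co1 to mt-Co3.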

Additional observations from a re-analysis of the deposited data

Results flagged for a closer look

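In 72 groups of 4 libraries (each tested member's CPM and each isoform ratio, by genotype), 6 held a library far from the others, where chance flags about 1 in 20. Cox6a2 in cKO was high in replicate 2, at 388 CPM against 321 to 324. Among controls the female library, replicate 3, was high for Coa4 (8.88 CPM, next 6.43) and Surf1 (29.7 CPM, next 25.2) and low for Cox6a1 (32.6 CPM, next 42.3). Control replicate 4 was high for Sco1 (35.4 CPM, next 30.2), and control replicate 1 was low for Cox7a2l (158 CPM, next 197).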

How the results depend on the processing

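Cox19 rose and 8 members (Coa7, Cox10, Cox4i1, Cox5a, Cox5b, Cox6b2, Cox7a1 and Cox7a2) fell in all 19 fits at the 0.05 threshold. The count of members that fell ran from 9 to 15 over the other fits and was 8 at a threshold of 0.01, and it was 9 to 12 with 1 library left out. The members' median log2 fold change ran from -0.33 to -0.18. Of 558 single-member values under alternatives, 518 kept direction and side of the threshold, 15 lost the call, 12 gained it and 13 changed sign, none of them called. Of all tested genes, 1021 fell with total counts only, and 808 rose and 817 fell at a threshold of 0.01. With 1 library left out, 1129 to 1458 rose and 1093 to 1418 fell. The further biogenesis genes kept 0 rises in all fits and had 9 to 14 falls, or 8 at a threshold of 0.01. Values that missed the threshold and changed sign with 1 library left out were those of Coa3 (-0.041 to 0.091), Coa6 (-0.092 to 0.029), Surf1 (-0.11 to 0.017), Cox4i2 (-0.18 to 0.0092) and mt-Co2 (-0.52 to 0.0075). Sign also changed for Coa6 (0.054) and Surf1 (0.031) with total counts only, and in males for Coa3 (-0.039) and the Cox6a2 to Cox6a1 ratio (0.023), and the cause was not tested. With each library left out, the isoform ratio differences ran from -0.26 to -0.03 (Cox6a2 to Cox6a1), -0.22 to -0.09 (Cox7a1 to Cox7a2), -0.31 to -0.18 (Cox8b to Cox8a), 0.17 to 0.44 (Cox4i2 to Cox4i1) and -1.40 to -1.11 (Cox6b2 to Cox6b1). No paired analysis was possible because the labels give no number or litter shared between libraries of the 2 genotypes. Few reads limit Cox6b2, Cox11 and Cox16.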
